A study of Homo sapiens with 18 samples.

Results

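Expression of 29 genes of cholesterol synthesis, cholesterol handling and the SREBP control system was followed in the human prostate cancer line LNCaP once a protein disulphide isomerase had been knocked down. The 29 genes were chosen by symbol from the 59385 genes of the expression table, with no threshold on their values. By role they were 8 enzymes from acetyl-CoA to squalene, 11 enzymes from squalene to cholesterol, 5 genes of SREBP control and 5 genes of transport, esterification and efflux. The list had been proposed with an earlier result of these libraries known. That result was that its direction after siPDIA5 was not the same at 48 h and 96 h. Its siPDIA5 counts at 48 h, at 96 h and for their difference, by role as well, are a description and not independent evidence.

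The 18 RNA-seq libraries formed 6 groups of 3. Cells received siPDIA5 against PDIA5, siPDIA1 against PDIA1 (gene symbol P4HB) or the control siRNA siNC, and each siRNA was followed for 48 h or 96 h. All groups shared the line, a medium containing 10% FBS, transfection with RNAiMAX and stranded polyA libraries, per the labels' protocols. At each time both knockdowns were set against the same 3 siNC libraries. The labels do not tell if replicate libraries stem from separate cultures, so p-values may reflect technical spread alone.

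Cells make cholesterol by building the isoprenoid mevalonate from acetyl-CoA, joining isoprene units into squalene and closing squalene into lanosterol, which a series of enzymes of the endoplasmic reticulum (ER) then trims to cholesterol. The genes of this pathway are controlled by the SREBP transcription factors, which are held in the ER membrane by SCAP and the INSIG proteins when sterol is plentiful, and are carried by SCAP to the Golgi for cleavage when it is scarce. PDIA1 and PDIA5 work in the ER lumen, where they make and reshuffle the disulphide bonds of proteins being folded.

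SREBPs act on target promoters through the sterol regulatory element, generally together with NF-Y, which binds the CCAAT box. Promoter windows of 300 bases (250 before and 50 after the transcription start, RefSeq, GRCh38.p14) were found for 26 of the 29 genes, which had 33 windows in all. Of these, 7 are printed here, 5' to 3' on the gene's strand: those of the 3 genes with a match to TCACNCCA (a short form of the element), of INSIG1, of MVD and NSDHL as pathway enzymes whose log2 fold change after siPDIA5 was lower at 96 h than at 48 h, and of TM7SF2, the 1 enzyme with a called change upward. Capitals mark matches to TCACNCCA and to CCAAT on either strand, so that ATTGG is CCAAT on the other strand.
SREBF2, chr22:41832855-41833154, plus strand: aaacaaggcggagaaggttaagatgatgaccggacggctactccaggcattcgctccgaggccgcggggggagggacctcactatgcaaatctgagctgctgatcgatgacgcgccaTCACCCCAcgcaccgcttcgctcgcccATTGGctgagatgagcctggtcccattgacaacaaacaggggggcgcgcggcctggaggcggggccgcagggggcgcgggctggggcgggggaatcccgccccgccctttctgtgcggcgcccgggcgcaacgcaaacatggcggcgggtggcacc
MSMO1, chr4:165327419-165327718, plus strand: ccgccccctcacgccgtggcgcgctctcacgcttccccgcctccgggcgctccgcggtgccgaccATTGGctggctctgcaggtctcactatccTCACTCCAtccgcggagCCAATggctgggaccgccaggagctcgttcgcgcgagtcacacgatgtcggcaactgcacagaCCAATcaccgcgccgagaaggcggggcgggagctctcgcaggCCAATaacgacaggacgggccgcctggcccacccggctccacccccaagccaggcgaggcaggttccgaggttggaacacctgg
MVK, chr12:109573544-109573843, plus strand: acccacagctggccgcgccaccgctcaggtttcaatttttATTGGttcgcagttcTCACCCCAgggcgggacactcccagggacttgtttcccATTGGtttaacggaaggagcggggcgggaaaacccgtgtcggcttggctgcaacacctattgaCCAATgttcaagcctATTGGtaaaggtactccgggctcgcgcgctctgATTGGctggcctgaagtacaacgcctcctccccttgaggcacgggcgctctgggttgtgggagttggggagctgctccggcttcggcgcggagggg
INSIG1, chr7:155297628-155297927, plus strand: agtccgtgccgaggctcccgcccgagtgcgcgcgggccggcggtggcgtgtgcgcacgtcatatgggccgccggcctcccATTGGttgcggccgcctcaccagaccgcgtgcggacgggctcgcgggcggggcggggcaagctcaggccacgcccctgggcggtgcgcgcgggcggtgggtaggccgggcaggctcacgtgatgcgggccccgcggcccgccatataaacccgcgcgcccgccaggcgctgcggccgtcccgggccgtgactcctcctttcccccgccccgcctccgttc
MVD, chr16:88663042-88663341, minus strand: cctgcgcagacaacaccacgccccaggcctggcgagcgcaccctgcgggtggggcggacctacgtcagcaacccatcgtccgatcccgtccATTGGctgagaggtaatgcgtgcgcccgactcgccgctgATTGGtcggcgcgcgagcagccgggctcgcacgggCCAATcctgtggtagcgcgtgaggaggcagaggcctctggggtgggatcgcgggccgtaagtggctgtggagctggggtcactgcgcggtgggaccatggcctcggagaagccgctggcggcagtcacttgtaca
NSDHL, chrX:152830813-152831112, plus strand: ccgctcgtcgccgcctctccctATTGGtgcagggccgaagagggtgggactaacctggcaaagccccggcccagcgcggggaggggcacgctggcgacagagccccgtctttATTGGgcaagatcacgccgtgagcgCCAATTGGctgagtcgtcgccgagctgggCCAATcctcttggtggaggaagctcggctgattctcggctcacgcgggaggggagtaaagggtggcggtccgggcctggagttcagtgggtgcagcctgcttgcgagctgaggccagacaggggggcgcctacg
TM7SF2, chr11:65111622-65111921, plus strand: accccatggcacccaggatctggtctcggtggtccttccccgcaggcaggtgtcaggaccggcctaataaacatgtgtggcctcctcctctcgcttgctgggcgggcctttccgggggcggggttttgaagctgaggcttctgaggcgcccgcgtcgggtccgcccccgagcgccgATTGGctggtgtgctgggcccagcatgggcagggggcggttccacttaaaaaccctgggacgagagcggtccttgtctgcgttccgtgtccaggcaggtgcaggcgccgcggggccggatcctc

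Each motif searched lay in a larger share of these windows than of all windows. Raw shares of different motifs are not comparable, because a longer string matches less often. Only the exact letters were searched, so sterol regulatory elements with other letters were not counted. CCAAT lay in 20 of the 33 windows (60.6%), belonging to 18 genes, against 34.6% of all 35116 windows in the table and 34.7% of the 22199 windows of protein-coding genes. MVK and NSDHL held 5 matches each, MSMO1 held 4, MVD held 3, and SREBF2, INSIG1 and TM7SF2 held 1 each; in NSDHL a pair of matches overlapped on opposite strands. TCACNCCA lay in 3 windows (9.09%), against 3.95% of all windows and 3.72% of protein-coding ones. Its longer form TCACNCCAC, which contains the short one, lay in SREBF2 alone (3.03%, against 1.13%). The Sp1 motif GGGCGG was in 30 windows (90.9%) of 24 genes, against 45.0% of all windows and 56.3% of protein-coding ones. CACGTG, the E-box, was in 6 windows (18.2%) of LSS, SC5D, SCAP, INSIG1 and ABCA1, against 7.26% of all. All motifs were searched on both strands, a gene can have several windows, and a match is a description of letters, not of a bound site. PMVK, SREBF1, INSIG2 and NPC1 were among the genes whose windows held GGGCGG and no CCAAT.

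**Figure D1:**
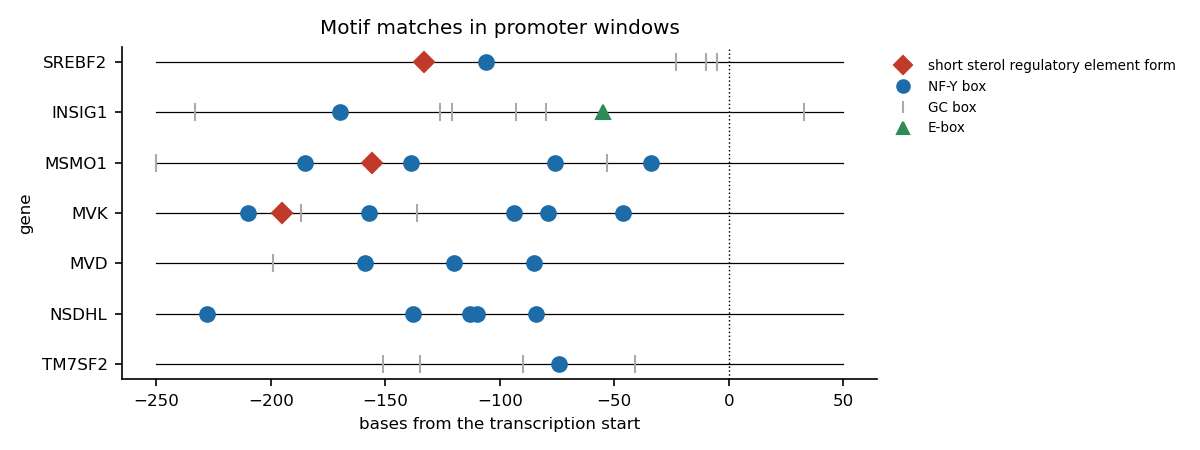
Motif matches in the 7 promoter windows printed above, by distance in bases from the transcription start (0, dotted line), with 1 line per gene. Diamonds mark TCACNCCA, circles CCAAT, grey bars GGGCGG and the triangle CACGTG; MVK and NSDHL hold 5 CCAAT matches each and TM7SF2 holds 1.

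RPKM stands for reads per kilobase of gene per fixed number of reads. The read total behind it was estimated at 29.2 to 43.9 M per library (M, 1e6), with a median of 37.3 M. These totals were inferred from the steps between low RPKM values, and which reads they count is not known. PDIA5 had 1.33 to 1.67 RPKM in siPDIA5 libraries and 13.5 to 14.4 RPKM in siNC libraries at 48 h, and 1.25 to 1.63 against 13.5 to 15.7 RPKM at 96 h. P4HB had 5.29 to 6.2 RPKM in siPDIA1 libraries and 66.3 to 67.7 RPKM in siNC libraries at 48 h, and 8.17 to 10.1 against 63.5 to 72.4 RPKM at 96 h. After siPDIA5, P4HB was higher (log2 fold change ± SE of 0.94 ± 0.07 at the earlier and 0.84 ± 0.07 at the later time). All 8 luminal prostate markers were present, with a summed level of 883 to 922 RPKM in siPDIA5, 708 to 724 in siPDIA1 and 830 to 838 in siNC libraries at 48 h, and of 1259 to 1303, 915 to 938 and 883 to 950 RPKM in siPDIA5, siPDIA1 and siNC libraries at 96 h. The markers moved apart: siPDIA5 raised 4 of the 8 and lowered 2 at 48 h, and raised 6 and lowered 2 at 96 h. Among them siPDIA1 raised 1 and lowered 2 at 48 h, and raised 3 and lowered 2 at 96 h. Of all tested genes 45.8% at 48 h and 51.1% at 96 h were called after siPDIA5, and 33.4% and 45.3% after siPDIA1. KLK3 averaged 602 ± 5.77 RPKM in siPDIA5, 350.4 ± 7.07 in siPDIA1 and 291 ± 17.2 in siNC libraries at 96 h (SD, n = 3). SLC45A3 averaged 37.8 ± 2.52 RPKM in siPDIA5, 18 ± 1.37 in siPDIA1 and 153 ± 8.58 in siNC libraries. TMPRSS2 averaged 52 ± 2.56 RPKM in siPDIA5, 56.2 ± 1.13 in siPDIA1 and 69.6 ± 1.32 in siNC libraries. Of the 24 basal, stromal, leukocyte, endothelial and hepatocyte markers, VWF and COL1A1 alone averaged 1 RPKM or more, and CD3E was at 0 in all 18. The summed endothelial level was 1.57 to 1.67 RPKM in siPDIA5, 1.65 to 1.84 in siPDIA1 and 0.901 to 1.32 in siNC libraries at 48 h, and 2.12 to 2.7 RPKM in siPDIA5, 2.91 to 3.29 in siPDIA1 and 1.40 to 1.57 in siNC libraries at 96 h, nearly all of it VWF (PECAM1 at most 0.0311 RPKM). The summed fibroblast and smooth muscle level overlapped between the groups at 48 h and was 2.91 to 3.22 RPKM in siPDIA5, 4.25 to 4.52 in siPDIA1 and 3.43 to 4.55 in siNC libraries at 96 h. The summed basal level was 0.243 to 0.322 RPKM in siPDIA5, 0.159 to 0.394 in siPDIA1 and 0.0228 to 0.114 in siNC libraries at 48 h, and 0.050 to 0.256, 0.443 to 0.728 and 0 to 0.126 RPKM in siPDIA5, siPDIA1 and siNC libraries at 96 h. The part of these markers in the results was not tested. In bulk libraries, fewer cells of a type and less RNA per cell cannot be told apart. The first siPDIA1 library at 96 h lay farthest from its group, where the root mean square deviation was 0.247 on the log2 scale, and 0.109 to 0.179 in the other 17.

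Of the 29 genes, 28 had a mean of at least 1 RPKM and were tested. ABCA1, the pump that exports cholesterol to lipoprotein particles, had 0.0786 to 0.13, 0.232 to 0.265 and 0.199 to 0.324 RPKM in siPDIA5, siPDIA1 and siNC libraries at 48 h, and 0.184 to 0.312, 0.22 to 0.387 and 0.188 to 0.371 at 96 h. It was under the filter in all groups and was not tested, though its siPDIA5 libraries at 48 h lay below all siNC libraries of that time. Fold changes below are differences of group means of log2(RPKM + 1) with their standard errors. This scale understates changes of low genes. Calls rest on limma, with p-values adjusted over all 11685 tested genes and a threshold of 0.05.

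After knockdown of PDIA5 more cholesterol genes were above than below control at 48 h, and more were below than above it at 96 h. MVD, FDFT1 and INSIG1 were higher at 48 h and lower at 96 h, and IDI1, FDPS, SQLE, MSMO1, NSDHL, EBP and DHCR7 were called at 96 h alone, as lower. TM7SF2, SREBF2, SCAP and NPC1 were higher at both times, and ACAT2 and LBR were lower at both. At 48 h, 12 of the 28 genes were higher than in siNC, 2 were lower and 14 were not called, with a median log2 fold change of 0.22. Over all tested genes 45.8% were called in this comparison, 16.6% higher and 29.2% lower, with a median of -0.09. At 96 h, 7 genes were higher, 12 were lower and 9 were not called, with a median of -0.15. The background at 96 h was 51.1% called, 20.8% higher and 30.3% lower, with a median of -0.06. The test of the difference between the times called 15 genes downward, 1 upward and 12 in neither direction, with a median of -0.35. The background for that test was 18.3% called, 9.22% upward and 9.09% downward, with a median of 0.03. Centring each library on its median shifted the median of all genes at 48 h by 0.10 (log2) and changed its split to 2728 genes higher and 2239 lower, from 1944 and 3408; quantile normalization gave 2427 and 2489. Under median centring 17 of the 28 genes were higher and 2 lower. The same centring changed the split of the difference between the times to 782 genes upward and 1419 downward, from 1077 and 1062.

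**Figure D2:**
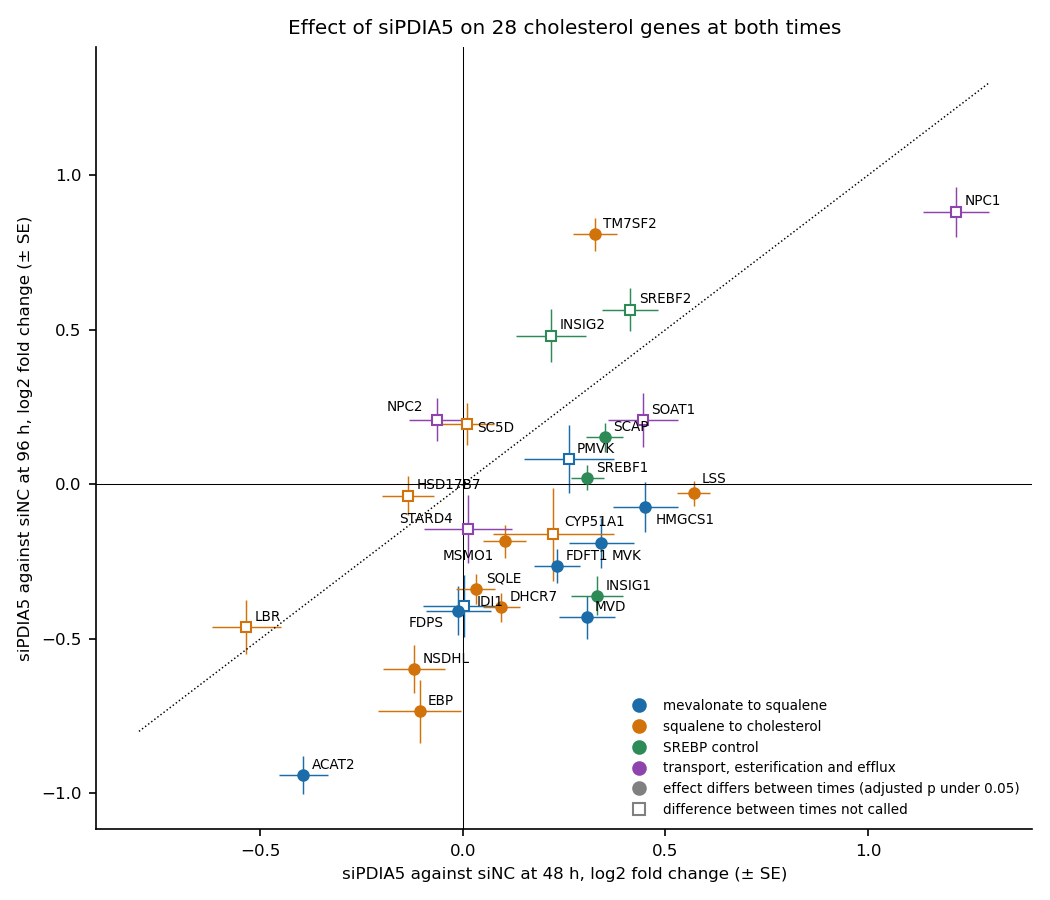
Log2 fold change of RPKM + 1 after siPDIA5 against siNC at 48 h (horizontal) and at 96 h (vertical) for the 28 tested genes, with standard errors as bars and colours for the roles. Filled circles mark the 16 genes whose effect differed between the times; 15 of them lie below the dotted line of equal effects and TM7SF2 lies above it.

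Of the 8 enzymes from acetyl-CoA to squalene, siPDIA5 raised 4 and lowered 1 at 48 h, and lowered 5 and raised none at 96 h. The difference between the times was called downward for 6 of the 8 and upward for none, with a median of -0.51. These calls are 62.5% of the role at 48 h, 62.5% at 96 h and 75% for the difference. The shares of all tested genes were 45.8%, 51.1% and 18.3%.

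HMGCS1 (chr5:43289395-43313512, minus strand, GENCODE 29 on GRCh38), the synthase that makes HMG-CoA, had 19, 17.6 and 16.8 RPKM in siPDIA5 libraries and 12.2, 13.8 and 12.3 RPKM in siNC libraries at 48 h. All 3 siPDIA5 libraries lay above the 3 siNC libraries, and the gene rose by 0.45 ± 0.08, adjusted p = 0.00027. At 96 h its levels of 12.3, 12.3 and 10.5 RPKM in siPDIA5 and 11, 13.9 and 12.2 RPKM in siNC libraries overlapped (-0.07 ± 0.08, adjusted p = 0.478). The effect itself changed by -0.52 ± 0.11, adjusted p = 0.00462. Reads of an antisense gene that covers 15.0% of its exons may be included, since the strand setting of the counting is not given in the sources used here.

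MVD, the decarboxylase that makes isopentenyl diphosphate, changed sign between the times. It had 9.75, 10.7 and 11.6 RPKM in siPDIA5 and 7.66, 8.98 and 8.71 RPKM in siNC libraries at 48 h, where it rose by 0.31 ± 0.07, adjusted p = 0.00194. At 96 h it had 7.6, 7.16 and 6.84 RPKM in siPDIA5 and 10.7, 9.44 and 9.98 RPKM in siNC libraries. The order of the groups was thus turned round, with no overlap at either time, and at 96 h the change was -0.43 ± 0.07, adjusted p = 7.77e-05. The change of its effect, -0.74 ± 0.10, adjusted p = 0.000104, was the largest downward one among the 28 genes.

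FDFT1, squalene synthase, also crossed over: it had 76.5, 73.9 and 77.4 RPKM in siPDIA5 and 66.7, 61.8 and 65 RPKM in siNC libraries at 48 h, a rise of 0.23 ± 0.06, adjusted p = 0.00296. At 96 h it had 58.9, 54.4 and 54.2 RPKM in siPDIA5 and 74.5, 62.2 and 65.7 RPKM in siNC libraries, a change of -0.26 ± 0.06, adjusted p = 0.000879. The groups did not overlap at either time. MVK, mevalonate kinase, was at 9.16 to 10.2 RPKM in siPDIA5 and 6.73 to 7.87 RPKM in siNC libraries at 48 h, where it rose by 0.34 ± 0.08, adjusted p = 0.00263; at 96 h its value was -0.19 ± 0.08, adjusted p = 0.0596, which missed the threshold, and its effect changed by -0.53 ± 0.11, adjusted p = 0.00432.

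ACAT2, the thiolase that starts the pathway in the cytosol, was lower at both times and more so at the later one. It had 16.2, 16.9 and 18.8 RPKM in siPDIA5 and 22.9, 22.4 and 23.6 RPKM in siNC libraries at 48 h (-0.39 ± 0.06, adjusted p = 7.05e-05). At 96 h it had 9.17, 9.14 and 9.03 RPKM in siPDIA5 and 18.9, 18.5 and 17.8 RPKM in siNC libraries (-0.94 ± 0.06, adjusted p = 3.68e-09). All siPDIA5 libraries lay below all siNC libraries at both times, and the effect changed by -0.55 ± 0.09, adjusted p = 0.000441. Genes on the opposite strand, among them SOD2 and TCP1, overlap its exons, and 33.9% is the largest share covered by any 1 of them. Its level is therefore uncertain, and the share of its reads that belong to these genes is not known.

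FDPS and IDI1, which make farnesyl diphosphate and isomerise its building block, were close to control at 48 h (-0.01 ± 0.08 and 0.00 ± 0.10) and fell at 96 h. FDPS had 12.5 to 15 RPKM in siPDIA5 and 16.2 to 19.2 RPKM in siNC libraries at 96 h (-0.41 ± 0.08, adjusted p = 0.000475). IDI1 had 12.4 to 13.6 RPKM in siPDIA5 and 15.5 to 19.9 RPKM in siNC libraries at 96 h (-0.39 ± 0.10, adjusted p = 0.00376). The difference between the times was called for FDPS (-0.40 ± 0.11, adjusted p = 0.0235) and not for IDI1 (-0.40 ± 0.14, adjusted p = 0.0656). Leaving out any of 7 single libraries ended the FDPS call, for example -0.35, adjusted p = 0.0627 without the third siPDIA5 library at 96 h. FDPS has 8 named pseudogenes, and antisense genes cover 18.6% of FDPS exons and 14.8% of IDI1 exons. PMVK, phosphomevalonate kinase, was not called at either time (0.26 ± 0.11 at 48 h and 0.08 ± 0.11 at 96 h); its siPDIA5 libraries at 48 h spread from 62.2 to 81.9 RPKM, the widest relative spread of the 8.

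Among the 11 enzymes from squalene to cholesterol, siPDIA5 raised 2 and lowered 1 at 48 h, and raised 2 and lowered 6 at 96 h. The difference between the times was called downward for 6, upward for TM7SF2 and for neither in 4, with a median of -0.37. Calls made up 27.3% of the role at 48 h, 72.7% at 96 h and 63.6% for the difference, against 45.8%, 51.1% and 18.3% of all tested genes. LSS (chr21:46188141-46228824, minus strand), which closes squalene into the sterol rings, had 32.8, 30.7 and 32.7 RPKM in siPDIA5 and 21.1, 21.3 and 21.4 RPKM in siNC libraries at 48 h. Those groups were far apart relative to their spread (0.57 ± 0.04, adjusted p = 1.71e-08). At 96 h LSS had 19.2, 19.1 and 19.8 RPKM in siPDIA5 and 19.3, 19.7 and 20.4 RPKM in siNC libraries, which overlapped (-0.03 ± 0.04, adjusted p = 0.575). Its effect changed by -0.60 ± 0.06, adjusted p = 3.96e-06, the smallest adjusted p of the 28 genes in that test.

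DHCR7, EBP and NSDHL fell at 96 h without a call at 48 h. DHCR7 (chr11:71428193-71452868, minus strand), the reductase of the last step, had 27.4, 28.3 and 27.5 RPKM in siPDIA5 and 39.4, 34.4 and 36.9 RPKM in siNC libraries at 96 h, with no overlap (-0.40 ± 0.05, adjusted p = 2.48e-06). EBP, the sterol isomerase, had 15.6, 18.5 and 15.4 RPKM in siPDIA5 and 32, 25.4 and 27.2 RPKM in siNC libraries at 96 h, also with no overlap (-0.74 ± 0.10, adjusted p = 1.75e-05). NSDHL, which acts in the removal of the methyl groups of lanosterol, had 20.5, 17.8 and 16.1 RPKM in siPDIA5 and 28.8, 26.9 and 27.9 RPKM in siNC libraries at 96 h (-0.60 ± 0.08, adjusted p = 7.9e-06). At 48 h their values were 0.09 ± 0.05, -0.11 ± 0.10 and -0.12 ± 0.08, and the changes between the times were -0.49 ± 0.07, adjusted p = 9.55e-05 for DHCR7, -0.63 ± 0.14, adjusted p = 0.00685 for EBP and -0.48 ± 0.11, adjusted p = 0.00651 for NSDHL. SQLE, squalene epoxidase, had the same pattern of calls, with 11.7 to 12.7 RPKM in siPDIA5 and 15.7 to 16.4 RPKM in siNC libraries at 96 h (-0.34 ± 0.05, adjusted p = 2.21e-05) after 0.03 ± 0.05 at 48 h and a change of -0.37 ± 0.07, adjusted p = 0.00141.

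MSMO1, the methylsterol oxidase whose promoter holds 1 TCACNCCA and 4 CCAAT matches, had a smaller fall. It had 18, 17.3 and 20.6 RPKM in siPDIA5 and 22.2, 20.4 and 21.1 RPKM in siNC libraries at 96 h, and the third siPDIA5 library lay inside the range of siNC. Its change was -0.18 ± 0.05, adjusted p = 0.00838, and without the second siPDIA5 library it missed the threshold (-0.14, adjusted p = 0.0537). Quantile normalization ended it too (-0.12, adjusted p = 0.0844). The change between the times was -0.29 ± 0.08, adjusted p = 0.0144, which quantile normalization also ended (-0.23, adjusted p = 0.056).

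TM7SF2 and LBR, which carry out the same sterol reductase step, moved in opposite directions. TM7SF2 had 105, 116 and 116 RPKM in siPDIA5 and 89, 89.3 and 89.7 RPKM in siNC libraries at 48 h (0.33 ± 0.05, adjusted p = 0.000139). At 96 h TM7SF2 had 205, 212 and 194 RPKM in siPDIA5 and 125, 107 and 115 RPKM in siNC libraries (0.81 ± 0.05, adjusted p = 5.24e-09). It was thus above control in all 6 siPDIA5 libraries, and its effect grew by 0.48 ± 0.08, adjusted p = 0.000447. LBR, which is also a receptor for lamin B in the inner nuclear membrane, had 12.4, 11.7 and 10.4 RPKM in siPDIA5 and 16.8, 18.1 and 16.4 RPKM in siNC libraries at 48 h (-0.53 ± 0.09, adjusted p = 0.000107). At 96 h LBR had 8.03, 7.74 and 7.38 RPKM in siPDIA5 and 9.51, 12.9 and 10.9 RPKM in siNC libraries (-0.46 ± 0.09, adjusted p = 0.000295). LBR was below control in all 6 siPDIA5 libraries. The ratio of the RPKM of TM7SF2 to that of LBR, a pair chosen after its values were seen, was 9.84 ± 1.39 in siPDIA5 and 5.23 ± 0.27 in siNC libraries at 48 h and 26.4 ± 0.93 against 10.7 ± 2.42 at 96 h (SD, n = 3 each).

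SC5D, a sterol desaturase, had 7.58 to 8.53 RPKM in siPDIA5 and 6.34 to 7.46 RPKM in siNC libraries at 96 h (0.20 ± 0.07, adjusted p = 0.0232), and leaving out the third siNC library ended that call (0.14, adjusted p = 0.129), as did leaving out the second or the third siPDIA5 library. HSD17B7, which works beside NSDHL, was not called (-0.14 ± 0.06 at 48 h and -0.04 ± 0.06 at 96 h) and has 2 named pseudogenes. CYP51A1, the lanosterol demethylase, was listed at 2.49 to 2.81 RPKM in siPDIA5 and 1.62 to 2.51 RPKM in siNC libraries at 48 h and was not called at either time. Its level is uncertain, because a gene on the same strand overlaps 79.4% of its exons.

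Of the 5 SREBP control genes, siPDIA5 raised 4 and lowered none at 48 h, and raised 3 and lowered 1 at 96 h. The difference between the times was called downward for 3. That is 80%, 80% and 60% called, where 45.8%, 51.1% and 18.3% of all tested genes were. SREBF2, which encodes SREBP2, had 73.5, 73.5 and 63.4 RPKM in siPDIA5 and 52.1, 54.4 and 50.5 RPKM in siNC libraries at 48 h (0.41 ± 0.07, adjusted p = 0.000152). At 96 h SREBF2 had 53.9, 61.6 and 56.1 RPKM in siPDIA5 and 34.7, 40.8 and 39.6 RPKM in siNC libraries (0.57 ± 0.07, adjusted p = 4.56e-06). All 6 siPDIA5 libraries were above the siNC libraries of their time, and the change between the times, 0.15 ± 0.10 with a 95% interval of -0.06 to 0.36, was not called (adjusted p = 0.313).

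SREBF1, which encodes SREBP1, had 121, 114 and 121 RPKM in siPDIA5 and 97.1, 95.2 and 94.3 RPKM in siNC libraries at 48 h (0.31 ± 0.04, adjusted p = 1.49e-05). At 96 h the levels were 89, 93.4 and 93.3 RPKM in siPDIA5 and 88.6, 91.6 and 91.5 RPKM in siNC libraries (0.02 ± 0.04, adjusted p = 0.703). The rise was thus called at the earlier time, and its effect changed by -0.29 ± 0.06, adjusted p = 0.00256, a call that quantile normalization ended (-0.17, adjusted p = 0.198). SCAP, the escort of the SREBPs, had 34.1 to 35.5 RPKM in siPDIA5 and 25.1 to 28.2 RPKM in siNC libraries at 48 h (0.35 ± 0.05, adjusted p = 1.64e-05), and 27.2 to 29 against 24.6 to 26.2 RPKM at 96 h (0.15 ± 0.05, adjusted p = 0.0121). Without the second siPDIA5 library at 96 h the later call was lost (0.13, adjusted p = 0.0554). Its change between the times, -0.20 ± 0.07, adjusted p = 0.0472, lost its call when any of 8 single libraries was left out, up to -0.15, adjusted p = 0.118 without the third siNC library at 48 h.

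INSIG1 and INSIG2, which retain SCAP in the ER, parted at 96 h. INSIG1, itself a well-known SREBP target, had 42.6, 41.9 and 40.5 RPKM in siPDIA5 and 34.5, 33.6 and 30.7 RPKM in siNC libraries at 48 h (0.33 ± 0.06, adjusted p = 0.000513). At 96 h INSIG1 had 20.5, 19.9 and 21.4 RPKM in siPDIA5 and 28.4, 26.7 and 25.1 RPKM in siNC libraries (-0.36 ± 0.06, adjusted p = 0.000178). The siPDIA5 libraries lay wholly above siNC at the earlier time and wholly below it at the later one, a change of -0.69 ± 0.09, adjusted p = 8.26e-05. INSIG2 had 4.59, 3.49 and 4.23 RPKM in siPDIA5 and 3.38, 3.18 and 3.57 RPKM in siNC libraries at 48 h, which overlapped and just missed the threshold (0.22 ± 0.09, adjusted p = 0.0501); leaving out the second siPDIA5 library gave a call (0.31, adjusted p = 0.00917). At 96 h INSIG2 had 7.15, 5.89 and 6.52 RPKM in siPDIA5 and 4.75, 4.27 and 4.13 RPKM in siNC libraries, with no overlap (0.48 ± 0.09, adjusted p = 0.000209). The ratio of the RPKM of INSIG1 to that of INSIG2, likewise chosen after its values were seen, was 10.3 ± 1.51 in siPDIA5 and 9.80 ± 1.05 in siNC libraries at 48 h, and 3.17 ± 0.27 in siPDIA5 and 6.11 ± 0.14 in siNC libraries at 96 h (SD, n = 3 each).

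**Figure D3:**
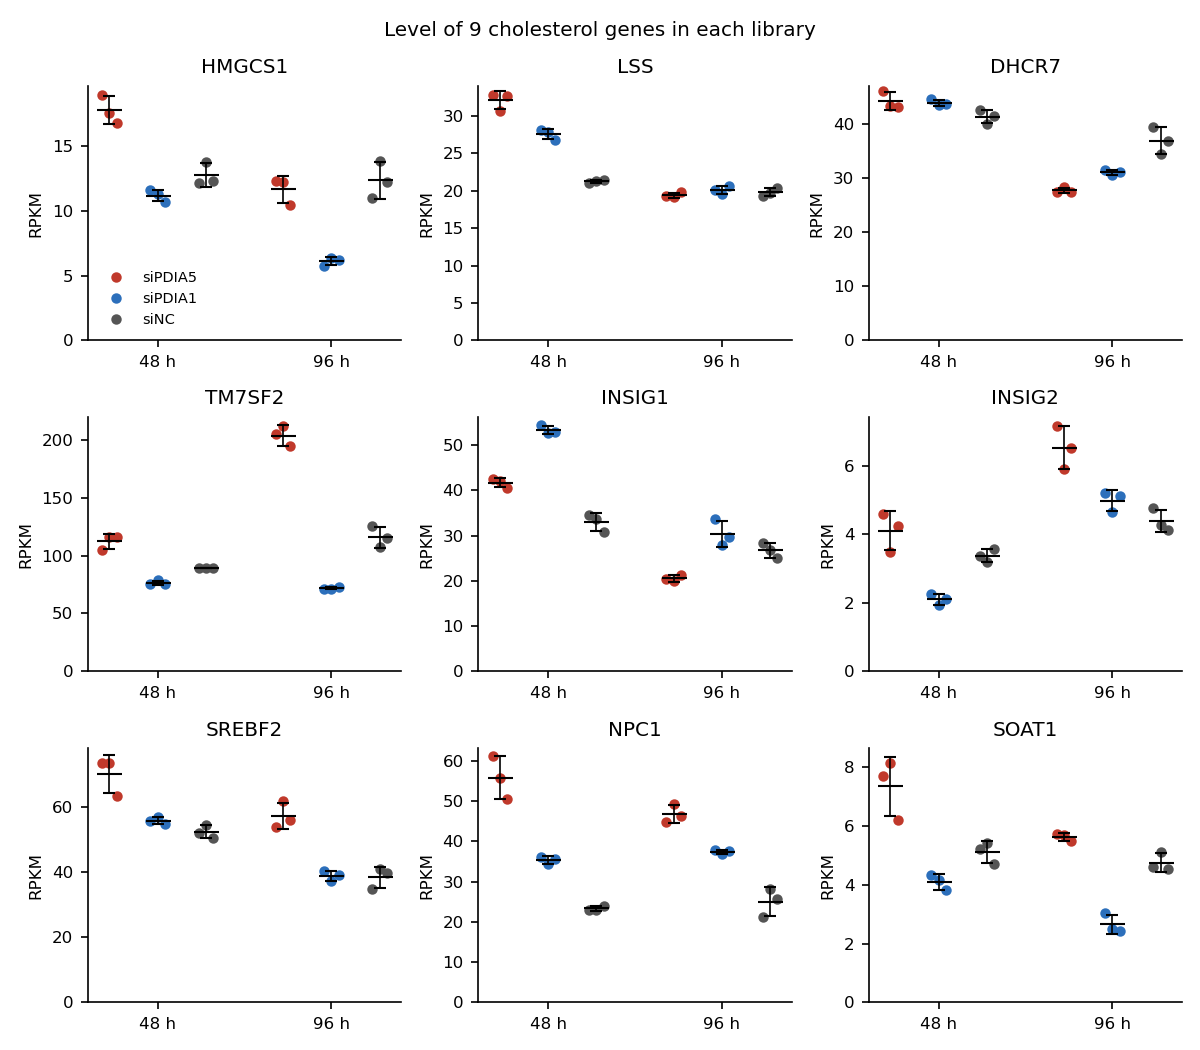
RPKM of 9 of the genes in each library (vertical, linear scale from 0) by siRNA at 48 h and 96 h, with siPDIA5 in red, siPDIA1 in blue and siNC in grey; points are libraries, the horizontal mark is the mean and bars are the SD of 3. INSIG1 in siPDIA5 libraries is above siNC at 48 h and below it at 96 h, while TM7SF2, SREBF2 and NPC1 are above siNC at both times.

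Of the 5 transport, esterification and efflux genes, 4 were tested. Of these, siPDIA5 raised 2 and lowered none at each time, and no difference between the times was called. The 50% called at each time stood against 45.8% of all tested genes at 48 h and 51.1% at 96 h. NPC1 (chr18:23506184-23586898, minus strand), the membrane protein through which cholesterol leaves lysosomes, had 61.2, 55.8 and 50.5 RPKM in siPDIA5 and 23, 23.1 and 24.1 RPKM in siNC libraries at 48 h. The lowest siPDIA5 library was above 23 to 24.1 RPKM, the whole range of siNC, and the change of 1.22 ± 0.08, adjusted p = 9.95e-09 was the largest of the 28 genes at that time. At 96 h NPC1 had 44.7, 49.2 and 46.3 RPKM in siPDIA5 and 21.2, 28.2 and 25.8 RPKM in siNC libraries (0.88 ± 0.08, adjusted p = 2.07e-07). The change between the times was -0.34 ± 0.11, adjusted p = 0.0542, and without the first siNC library at 96 h it passed the threshold (-0.45, adjusted p = 0.00356), as it did without the third siPDIA5 library at 48 h.

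NPC2, the soluble partner of NPC1, had 17.7, 18.2 and 18.7 RPKM in siPDIA5 and 16.8, 13.3 and 16.9 RPKM in siNC libraries at 96 h (0.21 ± 0.07, adjusted p = 0.0198), after -0.06 ± 0.07 at 48 h. Without the low second siNC library the value was 0.10, adjusted p = 0.0937, and without the third siPDIA5 library the call was likewise lost (0.19, adjusted p = 0.0644). SOAT1 (chr1:179293714-179358680, plus strand), which esterifies cholesterol for storage, had 7.71, 8.14 and 6.22 RPKM in siPDIA5 and 5.21, 5.42 and 4.71 RPKM in siNC libraries at 48 h (0.44 ± 0.09, adjusted p = 0.000619). At 96 h SOAT1 had 5.48 to 5.73 RPKM in siPDIA5 and 4.53 to 5.12 RPKM in siNC libraries, which did not overlap and missed the threshold (0.21 ± 0.09, adjusted p = 0.0585). STARD4, a cytosolic sterol carrier, was not called (0.01 ± 0.11 at 48 h and -0.14 ± 0.11 at 96 h).

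Knockdown of PDIA1 gave a mixture that partly overlapped that of siPDIA5. ACAT2, IDI1, SQLE, LBR, MSMO1, NSDHL, EBP and DHCR7 were lower at 96 h after both siRNAs. After both, most called differences between the times were downward. MVD, FDPS, FDFT1 and INSIG1, lower at 96 h after siPDIA5, were not lower then after siPDIA1. At 48 h siPDIA1 raised 8 of the 28 genes, lowered 7 and left 13 without a call (median 0.07), where 33.4% of all genes were called, 16.0% higher and 17.4% lower (median -0.01). The count of 7 was 4 or 5 when any single library of the comparison was left out, and ACAT2, EBP, SOAT1 and HSD17B7 were the genes that lost it. At 96 h siPDIA1 raised 4, lowered 12 and left 12 without a call (median -0.03), where 45.3% were called, 20.1% higher and 25.2% lower (median -0.03). The lower count was 12 under every omission of 1 library, the outlying first siPDIA1 library included. The effect differed between the times for 9 genes downward and 1 upward (median -0.26), against a background of 5.47%, of which 2.50% were upward and 2.97% downward (median -0.02).

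In the steps up to squalene siPDIA1 raised 5 of the 8 enzymes at 48 h and lowered ACAT2. The role had 75% called at 48 h and 50% at 96 h, against 33.4% and 45.3% of all tested genes. For the difference between the times 37.5% were called, all downward, against 5.47% of all tested genes. MVD had 12.8, 12.2 and 13.4 RPKM in siPDIA1 and 7.66, 8.98 and 8.71 RPKM in siNC libraries at 48 h (0.55 ± 0.07, adjusted p = 1.59e-05) and 12.4, 12.5 and 11.9 against 10.7, 9.44 and 9.98 RPKM at 96 h (0.27 ± 0.07, adjusted p = 0.0053), higher at both times with no overlap. MVK, PMVK, FDPS and FDFT1 rose at 48 h by 0.34 ± 0.08, 0.46 ± 0.11, 0.27 ± 0.08 and 0.28 ± 0.06 and were not called at 96 h. The FDPS call at 48 h was lost without any of 3 single libraries, for example 0.23, adjusted p = 0.0742 without the second siNC library. HMGCS1 stood apart from these: it had 11.6, 11.3 and 10.7 RPKM in siPDIA1 and 12.2, 13.8 and 12.3 RPKM in siNC libraries at 48 h (-0.17 ± 0.08, adjusted p = 0.11). At 96 h HMGCS1 had 5.77, 6.36 and 6.2 RPKM in siPDIA1 and 11, 13.9 and 12.2 RPKM in siNC libraries, so that the highest siPDIA1 library was far below the lowest siNC one (-0.91 ± 0.08, adjusted p = 2.11e-07). Its change of effect, -0.73 ± 0.11, adjusted p = 0.00111, was the largest downward one after siPDIA1. IDI1 fell at 96 h (-0.51 ± 0.10, adjusted p = 0.000635), and ACAT2 was lower at both times, at -0.16 ± 0.06, adjusted p = 0.0481 at 48 h and -0.53 ± 0.06, adjusted p = 3.47e-06 at 96 h. The 48 h call of ACAT2 was lost without any of 5 single libraries, with a value of -0.12, adjusted p = 0.2 without the third siPDIA1 library. It held in 3 of 14 alternatives, and median centring (-0.16, adjusted p = 0.0818) and quantile normalization (-0.15, adjusted p = 0.062) were among those that ended it.

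Among the enzymes from squalene to cholesterol siPDIA1 raised 1 and lowered 4 at 48 h and lowered 8 of 11 at 96 h, with none higher. That is 45.5% and 72.7% called, where 33.4% and 45.3% of all tested genes were. The difference between the times was called for 45.5% of the role, all downward, against 5.47% of all tested genes. The gene raised at 48 h was LSS (0.36 ± 0.04, adjusted p = 4.52e-06), which was not called at 96 h (0.02 ± 0.04, adjusted p = 0.733). TM7SF2 had 75.8, 78.7 and 75.2 RPKM in siPDIA1 and 89, 89.3 and 89.7 RPKM in siNC libraries at 48 h (-0.22 ± 0.05, adjusted p = 0.00499), and 71.5, 70.9 and 72.5 against 125, 107 and 115 RPKM at 96 h (-0.68 ± 0.05, adjusted p = 5.79e-08). It was below control in all 6 siPDIA1 libraries, the opposite side from siPDIA5. LBR was lower at both times (-0.43 ± 0.09 and -0.39 ± 0.09), as were HSD17B7 (-0.20 ± 0.06 and -0.39 ± 0.06) and EBP (-0.29 ± 0.10 and -0.46 ± 0.10). The 48 h calls of both HSD17B7 and EBP rested on single libraries: without the second siPDIA1 library they were -0.17, adjusted p = 0.09 for HSD17B7 and -0.31, adjusted p = 0.0625 for EBP, and the EBP call was lost without any 1 of the 6. SQLE, NSDHL, DHCR7 and MSMO1 fell at 96 h, with log2 fold changes of -0.42 ± 0.05, -0.40 ± 0.08, -0.24 ± 0.05 and -0.21 ± 0.05, and were not called at 48 h. CYP51A1 and SC5D were not called at either time.

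In SREBP control the genes called after siPDIA1 were INSIG1 and INSIG2. Calls made up 40% of the role at 48 h and 20% at 96 h, against 33.4% and 45.3% of all tested genes. The difference between the times was called for 40%, with 1 upward and 1 downward, against 5.47% of all tested genes. INSIG1 had 54.4, 52.7 and 52.8 RPKM in siPDIA1 and 34.5, 33.6 and 30.7 RPKM in siNC libraries at 48 h, the largest rise of the 28 genes in that comparison (0.68 ± 0.06, adjusted p = 6.91e-07). At 96 h INSIG1 had 33.6, 27.9 and 29.7 RPKM in siPDIA1 and 28.4, 26.7 and 25.1 RPKM in siNC libraries, with an overlap (0.17 ± 0.06, adjusted p = 0.0352); without the outlying first siPDIA1 library it was not called (0.10, adjusted p = 0.198), nor without the third siPDIA1 library or the second or the third siNC library. INSIG2 had 2.27, 1.93 and 2.1 RPKM in siPDIA1 and 3.38, 3.18 and 3.57 RPKM in siNC libraries at 48 h (-0.50 ± 0.09, adjusted p = 0.000311), and was not called at 96 h (0.15 ± 0.09, adjusted p = 0.167). SREBF2, SREBF1 and SCAP had values of 0.09 ± 0.07, -0.04 ± 0.04 and 0.04 ± 0.05 at 48 h and 0.02 ± 0.07, 0.03 ± 0.04 and -0.07 ± 0.05 at 96 h, none of them called.

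In transport siPDIA1 raised NPC1 and lowered SOAT1 at both times. The tested genes of this role were called in 50% at 48 h and 75% at 96 h, against 33.4% and 45.3% of all tested genes. No difference between the times was called in this role, against 5.47% of all tested genes. NPC1 had 36.2, 34.3 and 35.6 RPKM in siPDIA1 and 23, 23.1 and 24.1 RPKM in siNC libraries at 48 h (0.58 ± 0.08, adjusted p = 4.58e-05) and 37.8, 36.9 and 37.6 against 21.2, 28.2 and 25.8 RPKM at 96 h (0.57 ± 0.08, adjusted p = 3.14e-05), with no overlap. SOAT1 had 4.35, 4.17 and 3.81 RPKM in siPDIA1 and 5.21, 5.42 and 4.71 RPKM in siNC libraries at 48 h (-0.26 ± 0.09, adjusted p = 0.0321), a call lost without any of 4 single libraries, for example -0.22, adjusted p = 0.122 without the third siPDIA1 library. At 96 h SOAT1 had 3.03, 2.51 and 2.44 RPKM in siPDIA1 and 4.61, 5.12 and 4.53 RPKM in siNC libraries, and its highest siPDIA1 library was below the lowest siNC one (-0.66 ± 0.09, adjusted p = 1.65e-05). NPC2 rose at 96 h (0.34 ± 0.07, adjusted p = 0.000998) and STARD4 was not called at either time.

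**Figure D4:**
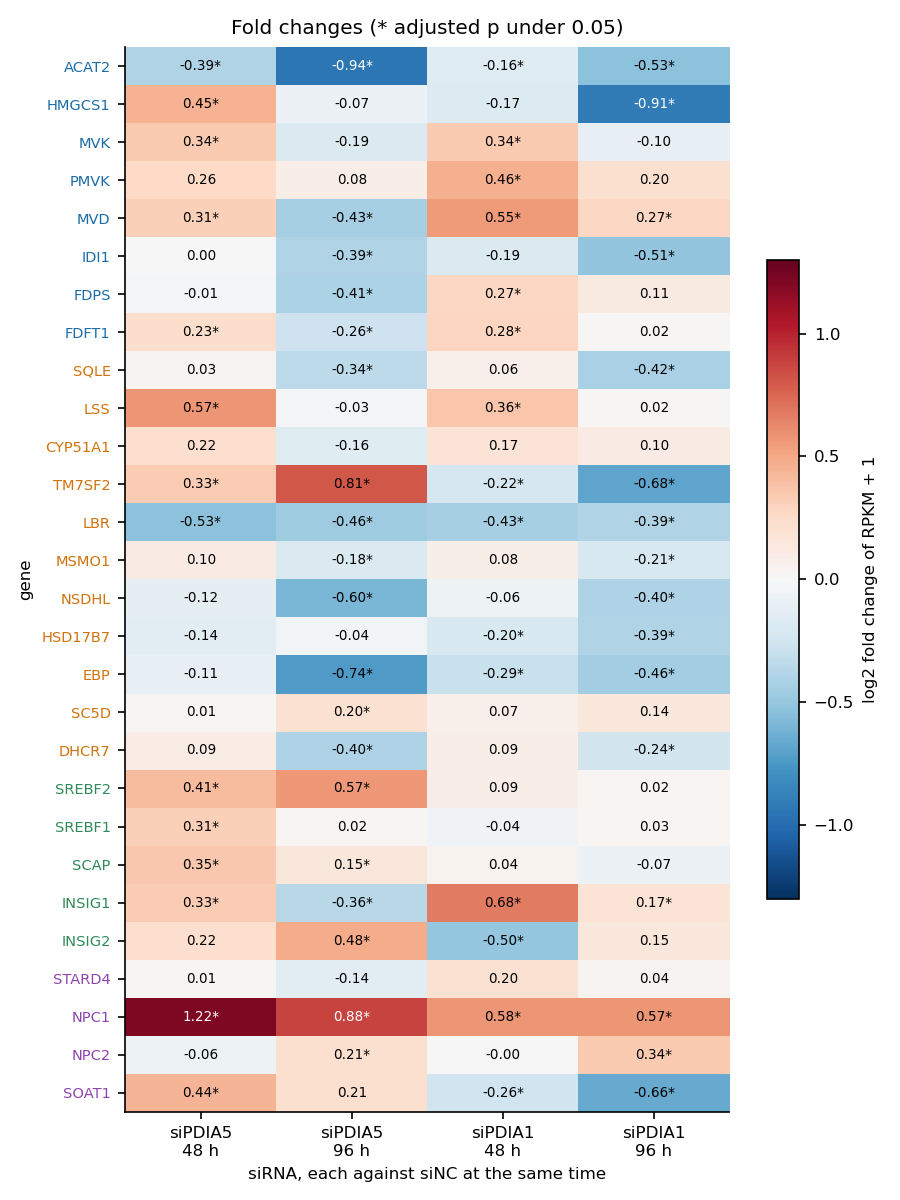
Log2 fold changes of RPKM + 1 of the 28 tested genes (rows; label colours are blue for enzymes up to squalene, orange for those up to cholesterol, green for SREBP control and purple for transport) after siPDIA5 and siPDIA1 at 48 h and 96 h, each against siNC of the same time; red is higher, blue is lower and asterisks mark calls. NPC1 is higher and LBR and ACAT2 are lower in all 4 columns, while TM7SF2 is higher after siPDIA5 and lower after siPDIA1. The call of ACAT2 after siPDIA1 at 48 h held in 3 of 14 alternatives.

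The fold changes of siPDIA5 against siPDIA1 do not use siNC. The siNC libraries enter these tests through the shared estimate of the spread. At 48 h 9 of the 28 genes were higher in siPDIA5, 4 lower and 15 not called, against 41.2% of all genes called, 14.9% higher and 26.3% lower; with median centring the split of all genes was 2650 higher and 2041 lower, from 1743 and 3070, and 1 of the 28 was lower (quantile normalization split all genes into 2248 and 2278). Without the first siPDIA5 library the lower count was 2, with MVD and FDPS losing their calls. At 96 h 8 genes were higher, 8 lower and 12 not called, against 48.5%, of which 20.9% were higher and 27.7% lower. TM7SF2 differed most at 96 h, with 194 to 212 RPKM in siPDIA5 and 70.9 to 72.5 RPKM in siPDIA1 libraries (1.49 ± 0.05, adjusted p = 6.3e-12). HMGCS1 was higher after siPDIA5 than after siPDIA1 at both times (0.62 ± 0.08, adjusted p = 1.45e-05 at 48 h and 0.83 ± 0.08, adjusted p = 4.45e-07 at 96 h). SOAT1, NPC1, SREBF2, SCAP and INSIG2 were also higher after siPDIA5 at both times, with SOAT1 at 0.70 ± 0.09, adjusted p = 1.0e-05 at 48 h and 0.86 ± 0.09, adjusted p = 7.55e-07 at 96 h. MVD, FDPS, ACAT2 and INSIG1 were lower after siPDIA5 at both times, with MVD at -0.70 ± 0.07, adjusted p = 6.52e-07 and INSIG1 at -0.54 ± 0.06, adjusted p = 4.32e-06 at 96 h. LBR and MSMO1 were not called between the knockdowns at either time, with 95% intervals at 96 h of -0.25 to 0.11 for LBR and -0.09 to 0.14 for MSMO1. The 96 h calls of NSDHL and EBP were lost without single libraries, NSDHL with -0.12, adjusted p = 0.21 without the third siPDIA5 library and EBP with -0.21, adjusted p = 0.14 without the second siPDIA1 library.

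**Figure D5:**
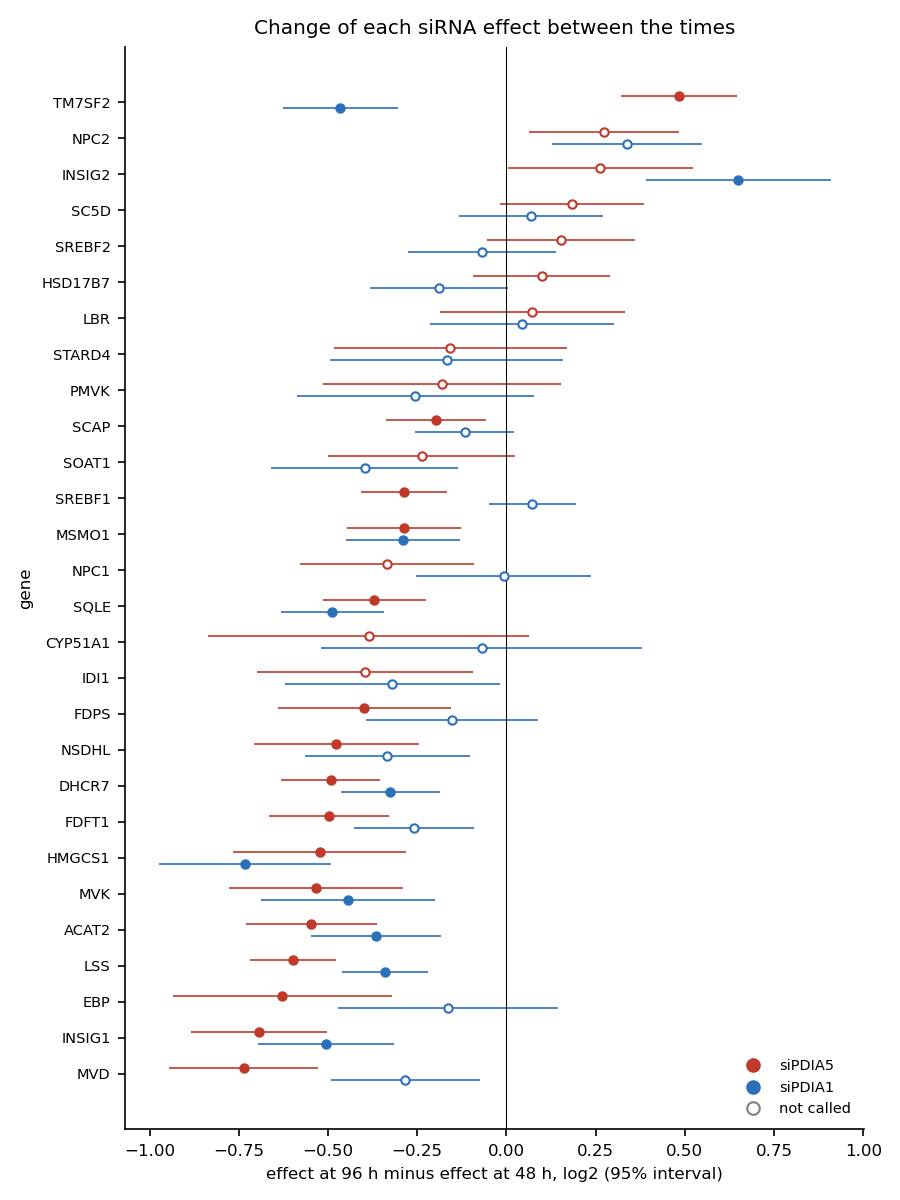
Effect at 96 h minus effect at 48 h on the log2 scale (horizontal, with 95% intervals) for siPDIA5 in red and siPDIA1 in blue, for each of the 28 tested genes, in the order of the siPDIA5 values. Filled points are calls, 16 for siPDIA5 and 10 for siPDIA1; TM7SF2 is above 0 after siPDIA5 and below 0 after siPDIA1.

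Control cells also changed with time. In siNC at 96 h against siNC at 48 h, 4 of the 28 genes were higher, 7 lower and 17 not called (median -0.08), where 24.3% of all genes were called, 11.0% higher and 13.3% lower (median -0.02). LBR had 9.51, 12.9 and 10.9 RPKM in siNC libraries at 96 h and 16.8, 18.1 and 16.4 RPKM at 48 h (-0.59 ± 0.09, adjusted p = 0.000217), and SREBF2 had 34.7, 40.8 and 39.6 RPKM at 96 h and 52.1, 54.4 and 50.5 RPKM at 48 h (-0.44 ± 0.07, adjusted p = 0.000398). Both fell without overlap. ACAT2, SQLE, INSIG1, MSMO1 and DHCR7 fell, with log2 fold changes of -0.31 ± 0.06, -0.28 ± 0.05, -0.29 ± 0.06, -0.23 ± 0.05 and -0.16 ± 0.05, and TM7SF2 rose by 0.37 ± 0.05, adjusted p = 0.000217. MVD, HSD17B7 and INSIG2 rose by 0.23 ± 0.07, 0.22 ± 0.06 and 0.30 ± 0.09, and each of these 3 lost its call without at least 1 single library, MVD for example with 0.18, adjusted p = 0.12 without the first siNC library at 96 h. DHCR7 lost its call likewise, with -0.14, adjusted p = 0.0649 without the first siNC library at 48 h.

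Neighbouring gene lists were counted in the same fit. Of 15 tested genes of fatty acid synthesis, which SREBP1 chiefly controls, siPDIA5 raised 6 and lowered 3 at 48 h and raised 4 and lowered 8 at 96 h, and the difference between the times was called downward for 9 and upward for none. These calls are 60% of the list at 48 h, 80% at 96 h and 60% for the difference, where 45.8%, 51.1% and 18.3% of all tested genes were called. ME1, which makes NADPH, rose at both times (1.07 ± 0.06 and 0.78 ± 0.06). ELOVL5, an elongase, rose at 48 h (0.40 ± 0.05) and fell at 96 h (-0.35 ± 0.05). ACLY, which makes cytosolic acetyl-CoA, fell at 96 h (-0.71 ± 0.07). After siPDIA1 the same list had 5 genes higher and 2 lower at 48 h and 4 higher and 9 lower at 96 h, with ACSL3, an acyl-CoA synthetase, at -0.79 ± 0.06 at 96 h. That is 46.7% and 86.7% called, where 33.4% and 45.3% of all tested genes were. Of 19 genes of SREBP processing and ER export, siPDIA5 raised 1 and lowered 4 at 48 h and raised 7 and lowered 2 at 96 h. The 26.3% and 47.4% called were below the 45.8% and 51.1% of all tested genes. MBTPS2, the site-2 protease that cleaves SREBPs in the Golgi, fell after siPDIA1 at both times, with 2.09, 2.2 and 2.18 RPKM in siPDIA1 and 5.8, 7.32 and 6.6 RPKM in siNC libraries at 48 h (-1.26 ± 0.11, adjusted p = 2.1e-07) and -1.28 ± 0.11 at 96 h. In this list siPDIA1 raised 5 and lowered 3 genes at 48 h and raised 4 and lowered 3 at 96 h (42.1% and 36.8%, where the background was 33.4% and 45.3%).

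Of 11 tested genes of sterol transport and turnover, siPDIA5 raised 4 and lowered 4 at 48 h and raised 4 and lowered 5 at 96 h (72.7% and 81.8% called, against 45.8% and 51.1% of all tested genes). TMEM97, a sterol-responsive binding partner of NPC1, had 31.2, 29.4 and 30.01 RPKM in siPDIA5 and 51.6, 55.9 and 55.5 RPKM in siNC libraries at 96 h (-0.83 ± 0.04, adjusted p = 2.88e-10). SCARB1, a lipoprotein receptor, and LIPA, the lysosomal lipase that frees cholesterol from its esters, fell at 96 h as well (-0.77 ± 0.06 and -0.69 ± 0.06), whereas OSBP, a sterol carrier at ER contact sites, rose (0.56 ± 0.06). In the same list siPDIA1 raised 3 and lowered 3 at 48 h and raised 3 and lowered 2 at 96 h (54.5% and 45.5% called, against 33.4% and 45.3% of all tested genes), with OSBP at 0.72 ± 0.06 and TMEM97 at -0.62 ± 0.04 at 96 h. Of 10 genes of the non-sterol isoprenoid branches, siPDIA5 raised 4 and lowered 2 at 48 h and raised 2 and lowered 2 at 96 h (60% and 40% called, against 45.8% and 51.1% of all tested genes). In those branches siPDIA1 raised 5 and lowered 2 at 48 h and raised 4 and lowered 1 at 96 h (70% and 50% called, against 33.4% and 45.3%). PDSS1, which makes the side chain of ubiquinone, fell after siPDIA5 at both times (-0.49 ± 0.08 and -0.94 ± 0.08), and ICMT, which methylates prenylated proteins, rose (0.78 ± 0.06 and 0.59 ± 0.06).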

How the data were processed

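RNA-seq of 18 LNCaP libraries was analysed from the authors' deposited table of RPKM values, which holds no counts. Tools listed in the submitters' processing notes are STAR 2.7.0f, featureCounts, cutadapt 1.8, R 3.4.1 and DESeq2, with hg38 and GRCh38 as builds and no role for any. The annotation release, the strand setting and the read total behind RPKM are not given there. Antisense, overlapping and pseudogene reads can therefore be misassigned.

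Coordinates are those of GENCODE 29 (GRCh38), which held 57118 of the 59385 identifiers. Depth was estimated by fitting whole-read steps to values of at most 20 reads; 99.6% to 99.8% were whole within 0.1 read, and these depths entered no test. Values were analysed as log2(RPKM + 1) for the 11685 genes with a mean of at least 1 RPKM, in 1 limma 3.58.1 fit (R 4.3.3) of 6 group means with a mean-variance trend. The 9 comparisons were two-sided, with Benjamini-Hochberg adjustment over all tested genes and a threshold of 0.05. Errors of RPKM are SD and those of fold changes SE. The fit was tested on simulated data with known changes.

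The members, lists and motifs were chosen with earlier results of these data known. All 29 genes are described; from 4 further lists up to 4 genes per siRNA comparison with the smallest adjusted p could be named. The alternatives tried comprised no filter, a mean of at least 5 RPKM, a pseudocount of 0.25, median centring, quantile normalization, a replicate block, fits of only the groups compared, no trend and leaving out each library. Promoter sequences are from RefSeq (GRCh38.p14), matched by symbol for 26 of the 29 genes.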

Additional observations from a re-analysis of the deposited data

Results flagged for a closer look

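For 16 of the 28 tested genes the effect of siPDIA5 at 96 h differed from that at 48 h by the test of the difference itself (log2 scale, limma, adjusted p under 0.05). Over all tested genes the share was 18.3%. The list had been proposed with its direction in this contrast known, so the count is a description and not independent evidence. Among the enzymes up to squalene the change was -0.55 for ACAT2, -0.52 for HMGCS1, -0.53 for MVK, -0.74 for MVD, -0.40 for FDPS and -0.50 for FDFT1. Among the later enzymes it was -0.37 for SQLE, -0.60 for LSS, -0.29 for MSMO1, -0.48 for NSDHL, -0.63 for EBP and -0.49 for DHCR7, and it was upward, 0.48, for TM7SF2. Among the control genes it was -0.29 for SREBF1, -0.20 for SCAP and -0.69 for INSIG1.

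For 10 genes the effect of siPDIA1 differed between the times by the same test, where 5.47% of all tested genes did. The change was -0.37 for ACAT2, -0.73 for HMGCS1, -0.44 for MVK, -0.49 for SQLE and -0.34 for LSS. It was -0.46 for TM7SF2, -0.29 for MSMO1, -0.33 for DHCR7 and -0.51 for INSIG1, and upward, 0.65, for INSIG2. The calls of MSMO1, MVK and ACAT2 after siPDIA1 were lost without single libraries, for example with -0.27, adjusted p = 0.0832 for MSMO1 and -0.40, adjusted p = 0.0863 for MVK without the third siPDIA1 library at 96 h and -0.33, adjusted p = 0.06 for ACAT2 without the second at 48 h. Of the 20 alternatives, omissions of a library included, 5 kept the call of MSMO1, 10 that of MVK and 16 that of ACAT2. Median centring ended the calls of MSMO1 (-0.27, adjusted p = 0.0726) and MVK (-0.42, adjusted p = 0.0551), as did fitting without the filter. Both knockdowns were set against the same siNC libraries, whose own levels at 96 h and 48 h are among the values above.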

How the results depend on the processing

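Of 3800 values of single genes recomputed under the alternatives, 3602 stayed on their side of the threshold, 142 lost a call and 56 gained one. None that was called changed sign, and 85 of the 3602, called neither way, did. Fitting only the groups compared gave 4 in place of 7 genes higher after siPDIA5 at 96 h, with SC5D, SCAP and NPC2 losing their calls, and 1 in place of 4 higher in siNC at 96 h against 48 h. Without the filter, 4 in place of 7 genes were lower after siPDIA1 at 48 h and 2 in place of 4 higher in siNC with time. Quantile normalization gave 2 in place of 1 upward difference after siPDIA1 and ended the differences of SREBF1 (-0.17, adjusted p = 0.198), MSMO1 (-0.23, adjusted p = 0.056) and SCAP (-0.13, adjusted p = 0.218) after siPDIA5, and median centring gave 1 in place of 4 genes lower in siPDIA5 than in siPDIA1 at 48 h. The cause was not tested.

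Leaving out 1 library gave 12 to 13 genes higher after siPDIA5 at 48 h, 5 to 7 higher and 11 to 13 lower at 96 h, and 1 to 2 upward and 13 to 15 downward differences; the 2 came without the first or the third siNC library at 96 h. It gave 4 to 5 genes lower after siPDIA1 at 48 h, where each of the 6 libraries lowered the count, 1 to 2 upward differences after siPDIA1 (2 without any 1 siNC library at 96 h), 6 to 10 downward ones (6, without ACAT2, MVK and MSMO1, when the first or the second siPDIA1 library at 48 h or the third at 96 h was left out), 2 to 4 lower in siPDIA5 than in siPDIA1 at 48 h (2 without the first siPDIA5 library) and 2 to 5 higher in siNC with time (2 without the first or the second at 48 h, or the first or the third at 96 h).

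Libraries with the same number correlated at -0.12 to 0.11 in their deviations from the group means. In 11 of 36 cases a library was closest to its own number. No pairing by number was thus seen in these deviations, which cannot show how the libraries were prepared. A replicate block gave 13 genes higher and 2 lower after siPDIA5 at 48 h, 8 higher and 13 lower at 96 h, and 14 downward differences. No comparison of siNC between the times was possible with the block, which lies within each time. Genes with a mean under 1 RPKM, such as ABCA1, were not tested in the main fit, and changes of lowly expressed genes are understated by the pseudocount.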
